A study of Mus musculus with 4 samples.

Results

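Thymus RNA of MNU-treated mice lacking Camk2g was compared with thymus RNA of MNU-treated wild-type mice. Camk2g encodes CAMKIIγ, the gamma chain of calcium/calmodulin-dependent protein kinase II. N-methyl-N-nitrosourea (MNU) is an alkylating mutagen that induces T-cell lymphoma in mice. The comparison covered 10587 of the 10598 genes in the deposited table, those with a mean of at least 10 normalised counts over all libraries, and used 2 of the 4 libraries. Both groups were C57BL/6J mice, of genotype wildtype or CAMKIIgamma-/-, injected once into the peritoneum with 75 mg/kg MNU when 4 to 5 weeks old, with a treatment time stated as 6 months. The other libraries, wild type and knockout given vehicle with the same stated time, are set beside the results as background. The design asks how loss of CAMKIIγ suppresses lymphoma that MNU induces. The labels do not state sex, how many animals a library held, or whether a thymus carried a tumour. Each group was 1 library, so no difference has a replicate check, no error or p-value is given, and every value describes these libraries and not their conditions.

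The thymus makes T cells from progenitors that enter from the blood. NOTCH1 signalling commits them to the T lineage, rearrangement of receptor genes takes them to the CD4 and CD8 double-positive stage in the cortex, and selected cells move to the medulla, mature and leave. Cortical and medullary epithelium, dendritic cells and B cells carry out this selection. In T-cell lymphoma of mouse and man NOTCH1 is often activated and drives MYC, the growth regulator whose protein stability the title of the study concerns.

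Camk2g itself checks the labels. It stood at 3173 normalised counts in wild type with MNU and 29.7 in knockout with MNU, which is 0.935% of the wild-type value, and at 2749 and 489 in wild type and knockout without MNU. The genotype labels of the MNU libraries thus hold at the targeted gene. The knockout library without MNU showed more Camk2g RNA, for a reason that was not tested. That library also held genes otherwise high only in wild type with MNU: over 42 genes at least 1000 and more than 20-fold above both other libraries there, its level was a median 15.4% of the wild-type MNU level (13.2% to 21.4%). Its Camk2g level, 489 against 3173 in wild type with MNU, lay at about the same share. Whether the Camk2g RNA and these genes have the same source was not tested. Values from the knockout without MNU are given as deposited, and each comparison that uses them carries this share. Between the MNU libraries, Prss16 in wild type was 0.0442% of the knockout value, the lowest of 27 epithelial genes over 1000 there, and Sall3 in knockout was 0.0307% of the wild-type value, the lowest of the 42 genes. The normalised counts summed to 34836257 in wild type with MNU and 33230818 in knockout with MNU, and to 33288000 and 32911362 without MNU. Xist, the RNA of the inactive X chromosome, was abundant in both MNU libraries (64411 and 71273). Against the tissue label, wild type with MNU kept T-lineage genes such as Rag1 (32664) and Lck (33349.9) but nearly lacked the defining genes of thymic epithelium: Psmb11 stood at 11.98 there and at 3175 in knockout with MNU.

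On the scale of log2(normalised counts + 10), 1586 of 10587 genes (15%) reached a 2-fold higher level in the MNU knockout than in the MNU wild type, and 780 (7.37%) a 2-fold lower one. Of the lists with more than 10 measured genes, described below, those of cortical and medullary thymic epithelium, NK cells, B cells, dendritic cells and mature thymocytes had the highest medians, and NOTCH targets the lowest. Cell-division and ribosome genes were lower together, with medians short of 2-fold. At 4-fold the counts were 724 (6.84%) and 267 (2.52%), and at 8-fold 379 (3.58%) and 139 (1.31%). The median over all genes was 0.0094, so the bulk of genes was centred, and differences ran from -1.24 at the 5th percentile to 2.45 at the 95th. The median size of a difference, whatever its sign, was 0.47, against 0.12 between the genotypes without MNU, where 274 genes (2.59%) were higher and 38 (0.359%) lower in knockout. Subtracting the median share of the MNU wild type from that knockout library made these 182 and 53. Because the share differed between genes, its median takes too much from some, so these are not corrected counts. Differences were more frequent among low genes: among the 2647 genes of lowest mean level in the MNU libraries 31.8% were higher and 9.14% lower, and among the 2647 of highest mean level 6.23% and 6.84%. The threshold divides a continuous range: just inside it stood Tm7sf2 (117 in wild type and 244 in knockout with MNU), 4930420K17Rik (217 and 443), Smurf2 (3739.6 and 1863) and Fkbp7 (286 and 138). Just outside stood Selenbp1 (215 and 439), Bbx (1056 and 2121), Mcat (1307 and 649) and Egfl7 (777 and 384).

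**Figure D1:**
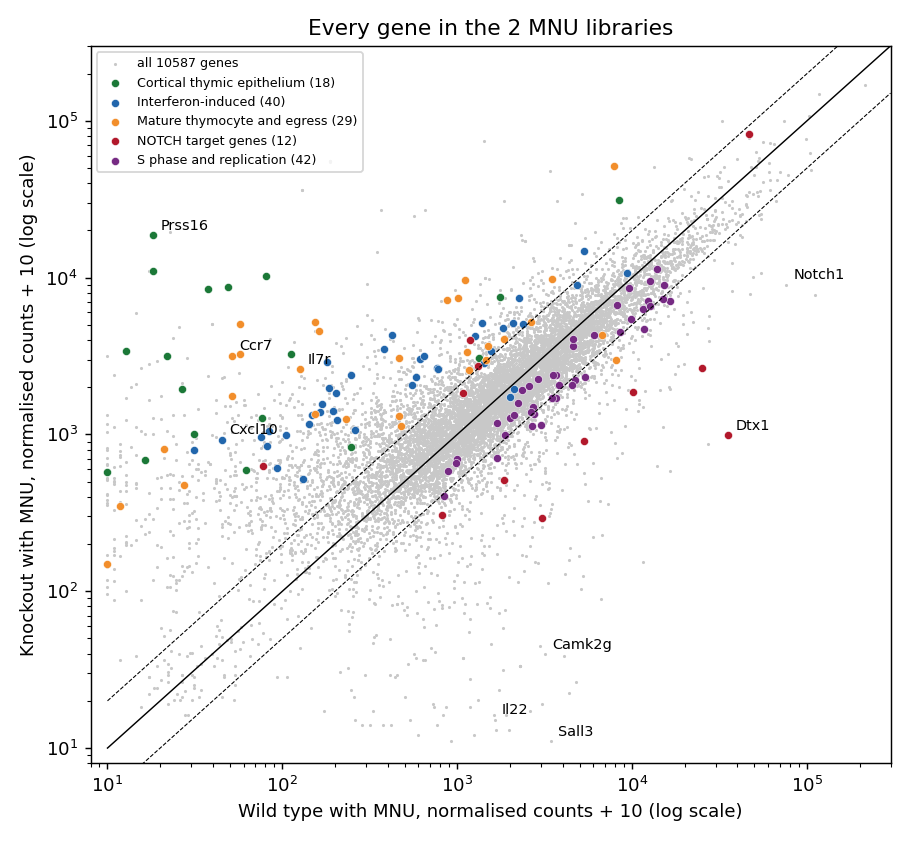
Normalised counts + 10 of every gene in wild type with MNU (horizontal) and knockout with MNU (vertical), both on log scales, 1 library each; the solid line is equality and the dashed lines are 2-fold. Cortical epithelial genes lie far above the line, Dtx1, Notch1 and Camk2g far below it, and S phase genes form a band just under it.

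In what follows, 4 values for a gene are normalised counts in the order wild type with MNU, knockout with MNU, wild type without MNU and knockout without MNU. A fold is the ratio of the MNU libraries, printed where both reached 20, and a log2 difference is knockout with MNU minus wild type with MNU after adding 10. The lists hold genes of a known role, and their counts are read against the 15% higher and 7.37% lower over all genes. Large differences that rest on values near 0 depend on the 10 added, and 5 list medians moved by over 1.5 times as a fold when 2.5 or 40 was added in its place.

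The 15 largest increases, among genes with at least 100 in the higher library, were of genes at 38.9 or less in wild type with MNU, except the Ccl21 copies, which stood at 119 to 177. Most belong to thymic epithelium. Prss16, the thymus-specific serine protease of the cortex, stood at 8.26, 18685, 25293 and 22697. Fcgbp, an IgG Fc-binding secreted protein, stood at 12.9, 19412, 13996 and 18805, and the basal keratin Krt5 at 7.33, 10977, 10373 and 17368. In each case the MNU wild type stood alone and low, and the other 3 libraries were within a factor of 2 of each other. Tbata, a gene of cortical stroma, stood at 8.26, 11045, 12926 and 13179, Krt17 at 4.54, 5953, 5838 and 5758, and Crip3 at 0.825, 2388, 3382 and 3240.3. Bpifa1, a secreted protein of airway epithelium, was listed at 0 in wild type with MNU and stood at 3141 in knockout with MNU, against 226 and 80.8 without MNU. Slc15a2, a peptide transporter, stood at 15.7, 4827, 300.4 and 2213. These last genes differed from the first ones in that knockout with MNU exceeded wild type without MNU by more than 10-fold. The remaining large increases were of Pax1, Krt8, Krt18, Dsp and the Ccl21 copies, described with the epithelium. In all, 34 genes reached 1000 in knockout with MNU and stayed under 20 in wild type with MNU, and 25 genes were listed at 0 in wild type with MNU.

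The 15 largest decreases were, apart from Camk2g itself, of genes at 369 or less in wild type without MNU. Sall3, a zinc finger transcription factor of embryonic development, stood at 3434, 1.05, 2.96 and 480.1. Sh3gl3, an endophilin of synaptic vesicles, stood at 4791, 16.4, 28.7 and 779.6, and Dpf1, a chromatin remodelling subunit of neurons, at 4332, 12.3, 32.7 and 663. Wild type with MNU was the high library for all of them, knockout with MNU was at the level of wild type without MNU or below, and the knockout without MNU lay between. Erc2, a presynaptic protein, stood at 3023, 9.23, 4.95 and 456, and Cym, the stomach protease chymosin, at 2612, 7.18, 7.92 and 408. Il22, a cytokine of T and innate lymphoid cells that acts on epithelium, stood at 1624, 5.14, 3.95 and 254, and the almost identical Iltifb at 1954, 3.097, 1.97 and 297. Reads of the copies cannot be assigned with certainty, so the pair counts as 1 observation. Kcnf1 (1659.8 and 3.097 in the MNU libraries), Rpl3l (1893 and 6.16), Spsb4 (1618 and 6.16), Gml (1232 and 2.08) and Hemt1 (909 and 1.05) showed the same on-off difference. Pde6a, a phototransduction phosphodiesterase, was 141-fold lower (4042 against 28.6). Ly6k, a GPI-anchored protein best known from testis, stood at 11539, 143, 369 and 2115 and was 80.7-fold lower. Camk2g ranked 14th of the 15. In all, 15 genes reached 1000 in wild type with MNU and stayed under 20 in knockout with MNU, and no gene was listed at 0 in knockout with MNU.

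The kinases related to Camk2g differed by less than 2-fold. Of 12 measured CaMK and calmodulin genes (16 listed), 0 were higher and 1, Camk2g, was lower at 2-fold. Camk2a, the alpha chain, stood at 1726, 1202, 1153 and 1231, and Camk2d, the delta chain, at 1594, 2055, 1799.8 and 1787. Camk4, a CaM kinase of thymocytes, stood at 20573, 13921, 18663 and 13781, and both knockout libraries were below both wild-type libraries. Camkk2, an upstream kinase, was lower (log2 difference -0.74), as was Pnck (-0.90), and Camk1 was higher (0.74), none of them by 2-fold.

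Of 5 measured NOTCH receptors and ligands, Notch1 and Notch3 were lower and the ligands Dll4 and Jag2 higher in knockout with MNU. Notch1, the receptor of T-lineage commitment, stood at 76273, 8987, 7913 and 18411 and was 8.49-fold lower. By normalised counts, which are not divided by gene length, it ranked 9th of all genes in wild type with MNU. Notch3, a receptor that is itself a NOTCH target, stood at 25218, 2639.5, 3386 and 6617 and was 9.55-fold lower. Notch2 stood at 1539, 2859, 2171 and 2773, within 2-fold. Dll4, the ligand that cortical epithelium presents to progenitors, stood at 51.9, 585, 737 and 527 and was 11.3-fold higher, and Jag2 (353 and 1442) was 4.08-fold higher. The lower receptors and the ligands thus stood on opposite sides, and Notch2 lay on the side of the ligands.

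Of 12 measured NOTCH target genes (15 listed), 7 were lower and 3 higher at 2-fold, with a median log2 difference of -1.64, the only one of 46 lists with a median at or under -1. Dtx1, the deltex ubiquitin ligase that NOTCH induces in T cells, stood at 35307, 978, 931 and 6307 and was 36.1-fold lower. Knockout with MNU was close to wild type without MNU for this gene. Heyl, a repressor of the HES and HEY family, stood at 3044, 284, 374 and 967, and Hes1, its relative that mediates NOTCH output in thymocytes, at 1833, 502, 488 and 631. Ptcra, the pre-T-cell receptor alpha chain, stood at 5295, 901, 1288 and 1544 (5.88-fold lower), and Il2ra, the IL-2 receptor alpha chain of immature thymocytes, at 10124, 1849.9, 2661 and 3677 (5.47-fold lower). Not all targets followed that direction. Hey1, also a gene of stroma, stood at 67.7, 615, 699 and 759 and was 9.08-fold higher, Nfkb2 (1175 and 3967) was 3.38-fold higher, and Gata3, a T-lineage factor, was 2.08-fold higher (1305 and 2718). Without MNU the same list had a median of 0.31. That value uses the knockout library that held the share of wild type with MNU described above, and its part in the 0.31 was not tested.

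The core machinery of the pathway differed little: of 18 measured genes (21 listed) for cleavage, glycosylation and nuclear action of NOTCH, 2 were higher and 0 lower, with a median of 0.15. Rbpj, the DNA-binding partner of cleaved NOTCH, stood at 3106, 3851, 3873 and 3387. The exceptions were Lfng, the fringe glycosyltransferase that tunes ligand choice (333 and 1717, 5.16-fold higher), and the coactivator Maml2 (221 and 1218, 5.51-fold higher).

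RBPJ binds DNA at the core TGGGAA. In the 250 bases before the first RefSeq start (GRCm38.p6), these letters stand on either strand in 21.5% of 27025 promoters of the table. They stand in 20.1% of the 7453 genes analysed with an entry, in 24.0% of 1116 higher genes and in 17.7% of 513 lower genes. The core was thus more frequent among higher genes than among lower ones. It stands in 1 of the 8 NOTCH target genes with an entry (Dtx1, Nrarp, Ptcra, Il2ra, Notch3, Gata3, Tcf7 and Nfkb2). That gene is Ptcra, shown here because it holds the core 2 times; the stretch is the last 114 bases before the start, minus strand, chr17:46763713-46763826, with the core in capitals.
Ptcra: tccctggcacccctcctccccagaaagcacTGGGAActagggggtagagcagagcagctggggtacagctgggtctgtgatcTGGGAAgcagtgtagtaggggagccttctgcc
The match is a description of letters, and the absence of the core in the other windows says nothing of RBPJ there.

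T-cell identity genes were present at comparable levels in both MNU libraries. Of 18 genes 2 were higher and 2 lower, with a median of 0.66. Cd3e, a chain of the T-cell receptor complex, stood at 4919.97, 9411, 9345 and 7312, Cd3g at 7735, 14347, 14126 and 11196 and Cd3d at 8779, 11742, 11386 and 9544. The lowest library for these chains was the MNU wild type. Cd5, a surface inhibitor whose level follows receptor signal strength, stood at 1476, 6793, 7081 and 4090.1 and was 4.602-fold higher. Cd28, the costimulatory receptor, was 2.52-fold higher (4512 and 11384). The kinase Zap70 went the other way, at 13525, 6739.7, 5992 and 6866, 2.01-fold lower.

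Receptor gene rearrangement and end joining had a median of 0.15 over 11 measured genes, of which 3 were at least 2-fold higher and 1 was lower. Rag1, the recombinase that cuts receptor genes, stood at 32664, 99894, 123683 and 73746, and Rag2, its partner, at 2113, 5534, 6793 and 4625. Dntt, the polymerase that adds untemplated bases at the joins, stood at 3376, 47968, 45759.9 and 33248 and was 14.2-fold higher. For Dntt, knockout with MNU was level with wild type without MNU. Xrcc6, the Ku70 end-joining subunit, went the other way: 54483, 10702, 14053 and 17859.8, 5.09-fold lower. Hmgb1 (log2 difference -0.66) and Hmgb2 (-0.67) were lower by less than 2-fold.

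Among 27 double-positive thymocyte genes 7 were higher and 2 lower (median 0.55). Ccr9, the homing receptor for Ccl25, stood at 5148, 34108, 31047 and 26944 and was 6.63-fold higher. Tdrd5 stood at 311, 4264, 3914 and 2751 and Nrgn, a calmodulin-binding protein, at 17.5, 353, 320.3 and 362. Satb1, a chromatin organiser, differed by less than 2-fold (46784 and 78071). Endou (2.24-fold lower, 41516 and 18541) and Ly6d (2.76-fold lower, 17361 and 6279) were the lower ones.

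Of 35 measured T-cell receptor signalling genes 10 were higher and 2 lower (median 0.21). Lck, the kinase that starts the cascade, stood at 33349.9, 50617, 52941 and 44246, and the adaptor Lat at 26423, 25099, 24396 and 23836, both within 2-fold. Tec, a TEC-family kinase, was 3.52-fold higher (327 and 1151), Syk 2.73-fold higher (1303 and 3557) and Lcp2, the SLP-76 adaptor, 2.66-fold higher (4151 and 11039). Rasgrp1, which loads RAS downstream of the receptor, was 2.43-fold higher (7825 and 19035). Genes that the receptor induces quickly showed more of a difference: of 23 immediate-early genes 13 were higher and 0 lower, with a median of 1.09. Egr2 stood at 71.4, 1127, 731 and 611 and was 15.8-fold higher, and Egr1 at 785, 3860.1, 4313 and 3008, 4.92-fold higher. Nr4a1 was 2.11-fold higher (1333 and 2809) and Jun 3.74-fold higher (365 and 1365). Fos did not follow, at 842, 438, 821 and 524.

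Genes of mature thymocytes and of exit from the thymus were among the most consistently higher. Of 29 genes 26 were higher and 1 lower at 2-fold, with a median of 2.88, against 0.22 between the genotypes without MNU. Ccr7, the receptor that draws selected cells to the medulla, stood at 41.7, 3172, 2829 and 2195 and was 76.03-fold higher. Il7r, the survival receptor that mature cells regain, stood at 116, 2587, 1702 and 3061 (22.3-fold higher), and Cd69, induced at selection, at 41.7, 1751, 1980.3 and 1663 (41.97-fold higher). For each, the MNU wild type stood alone below the other 3 libraries. Gimap3, a GTPase of lymphocyte survival, stood at 47.3, 5014, 2234 and 3974 and was 106-fold higher, the largest ratio of the list among genes with both libraries at 20 or above. Gimap4 was 35.99-fold higher (144 and 5181) and Ms4a4b 68.7-fold higher (47.3 and 3249). Cd40lg, the helper signal to B cells, stood at 1.75, 337, 289 and 186. The factors of egress differed less: S1pr1, the receptor for exit into blood, was 2.38-fold higher (469 and 1119), and Klf2, its activator, 2.86-fold higher (453 and 1296). Foxo1, an upstream regulator of Klf2 and Il7r, was the lower gene, at 8067, 2989.9, 3046 and 3569, 2.698-fold lower.

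**Figure D2:**
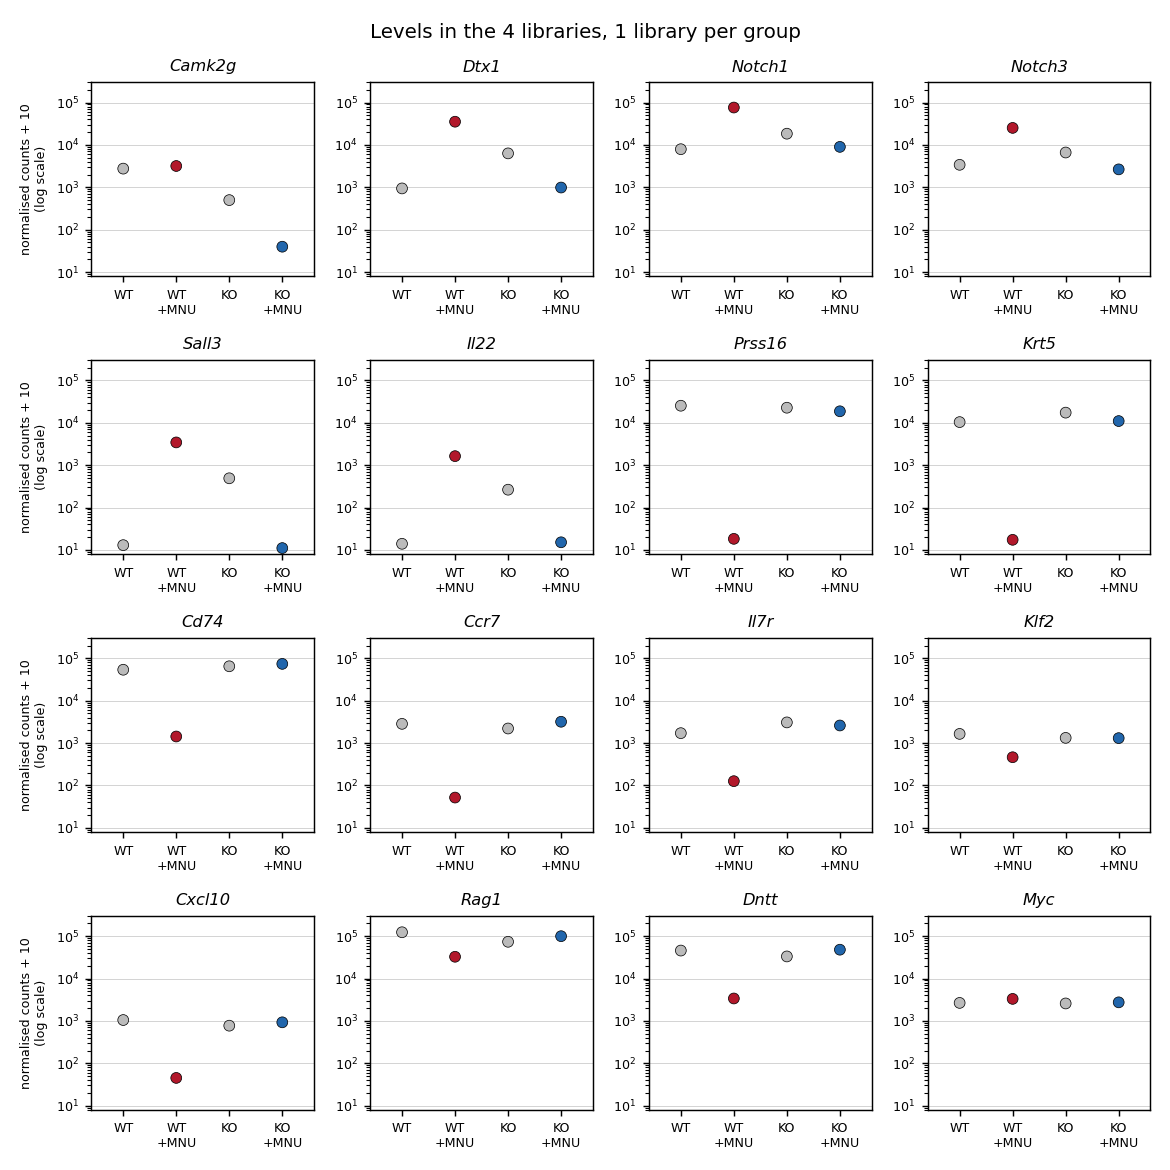
Normalised counts + 10 (log scale) of 16 genes in the 4 libraries, 1 point per library, with wild type with MNU in red and knockout with MNU in blue. For Prss16, Krt5, Cd74, Ccr7, Il7r, Cxcl10 and Dntt the red point is far below the others, and for Dtx1, Notch1, Notch3, Sall3 and Il22 it is the highest.

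For regulatory and activated T cells, 13 of 17 measured genes were higher and 0 lower (median 1.53). Relb, an NF-kappaB subunit, was 11.3-fold higher (169 and 1905), Tnfrsf4 (OX40) 6.23-fold higher (81.7 and 509) and Tigit 8.92-fold higher (23.1 and 206). Ctla4, by contrast, stood at 739.97, 464, 456 and 628, and the activation marker Cd44 at 3977, 2135, 1642 and 2349, both highest in wild type with MNU. Foxp3 was not analysed here. Among 31 T-lineage transcription factors 7 were higher and 2 lower (median 0.12). Zbtb7b, the CD4-lineage factor ThPOK, stood at 188, 1799, 1495 and 1455 (9.59-fold higher), and Id3, an inhibitor of E proteins induced by receptor signal, at 371, 3087, 2951 and 2077 (8.33-fold higher). Tox, needed for the CD4 lineage, was 2.92-fold higher (1435 and 4191). Runx3, the CD8-lineage factor, went the other way, at 3409, 1175, 1003 and 1562, 2.902-fold lower. Tcf7 (46392 and 82903), Bcl11b (17766 and 21315) and Ikzf1 (41554 and 25161), which hold T-lineage identity, differed by less than 2-fold. Of 8 early thymocyte genes 2 were higher and 1 lower: Meis1, a progenitor homeobox factor, was 14.6-fold higher (30.6 and 446).

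Cytokine receptor and JAK-STAT genes were higher more often than lower, 18 against 3 of 38 (median 0.89). Cish, a STAT5-induced inhibitor, stood at 28.7, 640.5, 590.02 and 887 and was 22.3-fold higher. Il21r was 5.62-fold higher (1265 and 7114), Il4ra 3.97-fold higher (1852 and 7347) and Jak3, the kinase of the common gamma chain, 3.504-fold higher (894 and 3133). Pim1, a kinase and STAT target that cooperates with MYC in lymphoma, was 2.23-fold higher (1318 and 2943). Il2ra, given with the NOTCH targets, and Il12rb2 (3.43-fold lower, 1909 and 556) were lower. Of 8 measured interleukins 4 were higher and 2 lower, the lower ones being Il22 and Iltifb. Il7, the stromal factor for thymocyte survival, stood at 6.396, 679, 694 and 891, and Il1b at 56.6, 459, 349 and 516.

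Interferon-induced genes were higher together. Of 40 measured (44 listed) 36 were higher and 0 lower at 2-fold, with a median of 2.31, and the values without MNU had a median of 0.24. Isg15, a ubiquitin-like modifier, stood at 186, 1409.6, 1043 and 1391 and was 7.59-fold higher. Irf7, the factor that amplifies the response, stood at 411, 4313, 2435 and 3361 (10.5-fold higher). The low library was again the MNU wild type. Ifi44 had the largest ratio (21.3 and 791, 37.2-fold higher), followed by the T-cell chemokine Cxcl10 at 35.2, 917, 1039 and 763 (26.1-fold higher), Oasl2 at 17.1-fold higher and Cxcl9 at 14.5-fold higher. The summed level of the 40 genes was 44851, 124399, 101473 and 112614. Antigen-presenting and epithelial cells of thymus make interferon-induced transcripts, their markers moved in the same direction, and their part in this difference was not tested.

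The interferon response element reads GAAANNGAAA, a pair of GAAA repeats. In the 250 bases before the first RefSeq start it stands, on either strand, in 3.04% of all 27025 promoters, in 2.88% of the 7453 genes analysed here that have an entry, in 5.47% of 1116 higher genes and in 3.31% of 513 lower genes. It stands in 13 of the 29 interferon-induced genes with an entry (44.8%). This motif was chosen after the values were seen, the list holds genes known to carry it, and a match is no evidence of binding. The stretches below hold the element in capitals, with 30 bases on each side, on the gene's own strand (GRCm38.p6), for the 4 genes with the largest difference among those that hold it: Cxcl10 (minus strand, chr5:92349063-92349132), Oas3 (minus strand, chr5:120777695-120777764), Gbp2 (plus strand, chr3:142620574-142620643) and Ifit1 (plus strand, chr19:34640755-34640843).
Cxcl10: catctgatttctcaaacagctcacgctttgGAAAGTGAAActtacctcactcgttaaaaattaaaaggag
Oas3: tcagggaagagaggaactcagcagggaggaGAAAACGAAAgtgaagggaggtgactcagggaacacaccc
Gbp2: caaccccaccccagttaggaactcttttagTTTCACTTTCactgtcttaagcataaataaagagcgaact
Ifit1: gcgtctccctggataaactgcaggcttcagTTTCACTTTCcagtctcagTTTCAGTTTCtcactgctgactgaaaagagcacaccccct
The element reads forward in Cxcl10 and Oas3 and as its reverse complement TTTCNNTTTC in Gbp2 and Ifit1, and Ifit1 holds 2 copies. In wild type and knockout with MNU, Oas3 stood at 74.2 and 1045, Gbp2, a GTPase against intracellular microbes, at 236 and 2381, and Ifit1, which binds foreign RNA, at 159 and 1554.

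Chemokines fell into opposed groups. Of 39 measured 29 were higher and 7 lower. The higher ones included the lymphocyte-guiding Ccl21a at 119, 36075, 25002 and 23988, Ccl25, the cortical ligand of Ccr9, at 70.5, 10286, 15071 and 12867, Ccl22, made by medullary dendritic cells, at 3.61, 2008, 2049 and 1356, and Cxcl11, listed at 0 in wild type with MNU against 369.7. Ccl21a, Ccl21b (177 and 54628) and Ccl21c (177 and 54971) are near-identical copies and count as 1 observation. The lower ones were led by Cxcl13, the attractant of B-cell follicles, at 2732, 268, 147 and 626, 10.2-fold lower. The other lower ones, outside the genes named by rule and picked after their values were seen, were ligands made by macrophages and platelets: Ccl9 (3482 and 349), Ccl6 (5984 and 644), Pf4 (951 and 95.03), Ccl8 (3065 and 749), Ccl7 (206 and 66.4) and Ccl2 (252 and 88.9).

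Growth and division genes were lower together, most by less than 2-fold. All 42 S phase and replication genes were below 0 (median -0.82), with 13 lower and 0 higher at 2-fold, and all 36 G2 and mitosis genes were below 0 (median -0.75), with 9 lower and 0 higher. Mcm2, a subunit of the replicative helicase, stood at 12357, 7074, 7402 and 7094, and Pcna, the sliding clamp, at 13902, 11271, 12405 and 11084. The MNU wild type was the high library, and the other 3 lay close together. Mcm5 was 2.32-fold lower (16379.6 and 7075). Dut, which keeps uracil out of DNA, stood at 11679.8 and 4672, and the histone chaperone subunit Chaf1b was 2.37-fold lower (2654 and 1119). Mki67, the proliferation antigen, stood at 53226, 24919, 26753 and 30693, and Top2a, the topoisomerase of mitotic chromosomes, at 30123, 24172, 23844 and 23419.8. The spindle checkpoint kinase Bub1b was 2.32-fold lower (12698 and 5464) and the motor Kif4 2.34-fold lower (4891 and 2088). Markers of epithelium and antigen-presenting cells moved the opposite way, as given below, and their part in this shift was not tested.

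E2F factors switch on S phase genes through a site that reads GGCGGGAA. It stands on either strand in 1.88% of the same 27025 promoters and in 3.70% of the 7453 genes analysed with an entry. It stands in 2.51% of 1116 higher genes, in 2.92% of the 513 lower genes and in 4 of 34 S phase genes with an entry (11.8%). The motif was chosen after the values were seen. All 4 are shown, with the site in capitals as its reverse complement TTCCCGCC, before the plus-strand genes Chaf1a (chr17:56040339-56040406), Rrm1 (chr7:102441598-102441665), Prim1 (chr10:128015170-128015214) and Uhrf1 (chr17:56303259-56303326) of GRCm38.p6, with the Prim1 stretch ending at the start site.
Chaf1a: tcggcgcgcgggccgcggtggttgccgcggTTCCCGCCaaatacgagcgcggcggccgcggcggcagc
Rrm1: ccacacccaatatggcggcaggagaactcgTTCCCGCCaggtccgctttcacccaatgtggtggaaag
Prim1: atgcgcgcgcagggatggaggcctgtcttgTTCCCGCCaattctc
Uhrf1: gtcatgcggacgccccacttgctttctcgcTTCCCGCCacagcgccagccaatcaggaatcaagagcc
With MNU, Chaf1a, a chromatin assembly subunit, had 4500.03 in the wild type against 2061 in the knockout. The others, outside the naming rule, were Rrm1, the large subunit of ribonucleotide reductase (15081 and 7245), Prim1, the catalytic primase subunit (3471 and 1684), and Uhrf1, which maintains DNA methylation (12587 and 9463).

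Genes that MYC activates showed the same downward shift, while Myc RNA differed little. Myc stood at 3303, 2736, 2654 and 2574, a log2 difference of -0.27, which is within 2-fold. Of 46 measured nucleolar and growth genes 44 were below 0 (median -0.67), with 5 lower and 1 higher at 2-fold. Odc1, the first enzyme of polyamine synthesis, stood at 10775, 3027, 3187 and 4400.2 and was 3.56-fold lower. Nop58, a core protein of snoRNPs, was 2.598-fold lower (10413 and 4008), Cad, of pyrimidine synthesis, 2.26-fold lower (6367 and 2811) and Ncl, nucleolin, differed by -0.96 on the log2 scale (44492 and 22913). Bysl was the higher gene (2348 and 4739). Of 79 cytosolic ribosomal protein genes 78 were below 0 (median -0.47) with 1 lower and 1 higher at 2-fold: Rpl8 stood at 66319.9, 30682, 29240.2 and 36289, and the higher gene Rps4y2 at 44.5, 394, 386 and 379. Of 11 measured MYC network genes 1 was higher, Mlxipl, a carbohydrate-response factor of fat and liver, at 38.9, 208, 359.97 and 624, and 0 were lower. The 22 genes of MYC protein turnover were all within 2-fold (median -0.26): Fbxw7, the ubiquitin ligase that marks MYC for destruction, stood at 2126, 1884, 2279.8 and 1853, Skp2 at 1860.05, 1290.1, 1451 and 1472, Usp28, a deubiquitinase that opposes Fbxw7, at 773, 941, 919 and 913, and Gsk3a, a MYC-phosphorylating kinase, at 11109.9, 7073, 7328 and 7179. These are RNA levels and say nothing of MYC protein.

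Energy metabolism differed modestly. Of 21 glycolysis genes 3 were lower and 0 higher (median -0.28): Pkm2, the last step of glycolysis, stood at 42529, 18193, 17358 and 20394 (2.34-fold lower), Pgk1 at 13987, 6749.9, 6652 and 7876 (2.07-fold lower) and the lactate exporter Slc16a3 at 859, 224, 107 and 309 (3.84-fold lower). Of 76 oxidative phosphorylation genes 67 were below 0 (median -0.30), with 3 lower and 2 higher at 2-fold. The higher ones were subunits of muscle and brown fat, Cox8b (31.5 and 508) and Cox7a1 (12.9 and 232). Of 59 replication-dependent histone genes 6 were higher and 1 lower (median 0.14), unlike the S phase genes. Several are near-identical copies and so uncertain one by one.

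MNU makes alkylated bases that are repaired by direct reversal, base excision and mismatch recognition. Of 16 such genes 2 were lower and 0 higher (median -0.62). Mgmt, which removes alkyl groups from guanine, stood at 189, 82.8, 113 and 118 (2.28-fold lower). Alkbh2, an oxidative demethylase of DNA, had the largest positive difference of the list (0.88 on the log2 scale). Trp53 itself stood at 3674, 4106, 4198 and 3742. Of 24 p53 pathway genes 6 were higher and 1 lower (median 0.19): Perp, a p53 target that is also a desmosome protein of epithelium, stood at 76.1, 2033, 1833 and 2824 (26.7-fold higher), and Zmat3 was the lower one, at 2929, 717, 811 and 1074 (4.08-fold lower). Mdm2 (4299 and 4169.7) and Cdkn1a (874 and 826), the best known p53 targets, were within 2-fold.

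Survival genes differed in both directions. Bcl2, the survival protein of mature T cells, stood at 279, 2711, 2264 and 2481 and was 9.73-fold higher. Bcl2l1, that of double-positive cells, stood at 3403, 5372, 6708 and 4312, within 2-fold, as did Mcl1 (10412 and 15723). The BH3 protein Bik was lower (7.74-fold lower, 332 and 42.9), and Pmaip1, which is NOXA, higher (5.903-fold higher, 104 and 614). Of 19 measured genes 7 were higher and 3 lower, and 3 of the higher ones, Bcl2a1a, Bcl2a1b and Bcl2a1d, are near-identical copies. Among cell-cycle regulators of G1, Ccnd2, cyclin D2, stood at 293, 5791, 4250.1 and 5489 and was 19.8-fold higher, and Ccnd3, the thymocyte cyclin D, at 8599.98, 22146, 34885 and 17834 (2.58-fold higher). Cdkn2a, the Ink4a and Arf tumour suppressor locus, stood at 347, 100.1, 34.7 and 149 and was 3.47-fold lower. Of 20 measured genes that recur in T-cell lymphoma and leukaemia 3 were higher (Ccnd2, Bcl2 and Pim1) and 2 lower (Notch1 and Cdkn2a). These are 15% and 10% of the list, close to the 15% and 7.37% over all genes. Of 17 DNA methylation and Polycomb genes 1 was higher, Ezh1 (3.297-fold higher, 752 and 2479).

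Cortical thymic epithelium had the highest median of all lists with more than 10 measured genes. All 18 measured cortical genes (19 listed) were at least 2-fold higher in knockout with MNU, with a median log2 difference of 5.62, against -0.03 between the genotypes without MNU. Set against untreated wild type, the MNU knockout had a median of -0.40 and the MNU wild type one of -5.66. These differences share libraries, so they are set side by side and not compared. Psmb11, the thymoproteasome subunit, stood at 11.98, 3175, 5200.1 and 4296. Pax1, a factor of the pharyngeal pouch, stood at 2.68, 3391, 4497 and 4309.8, and the simple keratin Krt8 at 27.8, 8401, 10813 and 10868. Foxn1, the master regulator of thymic epithelium, singled out after its values were seen, was listed at 0 in wild type with MNU and stood at 569 in knockout with MNU. Wild type with MNU alone lacked these transcripts. In bulk tissue, fewer cells of a type and less RNA per cell cannot be told apart.

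Of 19 measured medullary epithelial genes (25 listed) 14 were higher and 1 lower (median 4.65). Aire, which drives expression of tissue antigens for tolerance, stood at 29.6, 984, 797 and 695 and was 33.2-fold higher. Fezf2, a parallel tolerance factor, was listed at 0 in wild type with MNU and stood at 506 in knockout with MNU. Csn2, a milk casein and tissue antigen of medulla, was also listed at 0 against 626. Krt14 stood at 5.47, 2641, 2217 and 4105 and the desmosome protein Dsp at 13.8, 4096, 5556 and 5879.5. The summed level of the cortical genes was 12176, 115778, 153969 and 150029, and of the medullary genes 22689, 188705, 141008 and 147228. The lower medullary gene was Ly6d, also listed for double-positive thymocytes. It held 17361 of the 22689 in wild type with MNU and 6279 of the 188705 in knockout with MNU.

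**Figure D3:**
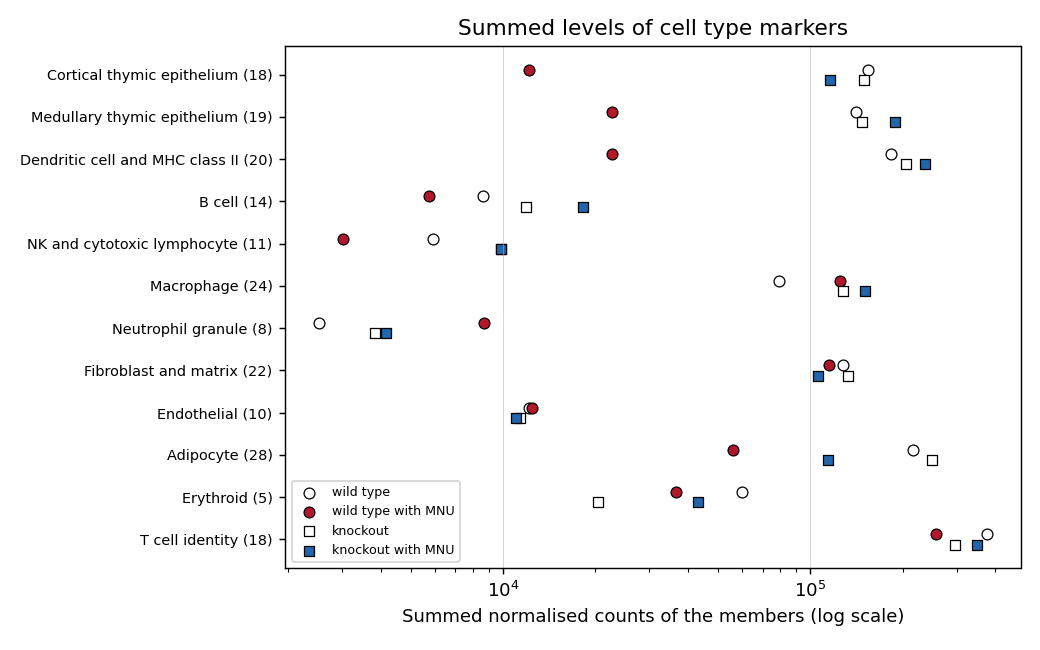
Summed normalised counts (log scale) of the measured markers of 12 cell types, with the number of markers in brackets, in the 4 libraries, 1 point each. Wild type with MNU (red circles) is the lowest library for both epithelial lists, dendritic, B, NK and adipocyte markers, and lies within the range of the others for macrophage and fibroblast markers. The medullary sum includes Ly6d, which the list of double-positive thymocytes also holds and which was high in wild type with MNU.

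Genes of dendritic, B and NK cells showed the same direction, and those of plasma cells did so only in part. Of 20 dendritic cell and MHC class II genes 18 were higher and 0 lower (median 2.92). Cd74, the invariant chain of MHC class II, stood at 1418, 73845, 53719 and 64788 and was 52.1-fold higher, and H2-Aa, a class II alpha chain, at 642, 27054, 20551 and 25348 (42.1-fold higher). Itgax, the CD11c integrin, stood at 303, 2591, 930.1 and 1668 (8.56-fold higher), and Ciita, which switches class II genes on, was 27.7-fold higher (97.5 and 2696). Of 14 B cell genes 11 were higher and 0 lower (median 3.48): Ms4a1, which is CD20, stood at 10.1, 1248, 413 and 648 and Cd79a at 50.1, 1657, 562 and 977. For these B cell genes knockout with MNU was the highest of the 4 libraries. Of 10 plasma cell genes 4 were higher and 0 lower (median 0.22): Igj, the joining chain of antibodies, stood at 356, 26869, 8896 and 20492 and was 75.5-fold higher. Of these genes 8 were above 0 and 2 below it. The lowest was Sdc1, at 2383, 1482, 1078 and 2125, with a log2 difference of -0.68. Of 11 NK and cytotoxic genes 9 were higher and 1 lower (median 4.29): Klrk1, the receptor NKG2D, stood at 1.75, 858, 316 and 1016, Nkg7 at 18.5, 765, 395 and 887 and Klrb1c at 11.97, 544, 217 and 629.7. Members of the Klr family resemble each other, so their values are uncertain one by one.

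Macrophage and neutrophil genes did not follow. Of 24 macrophage genes 3 were higher and 6 lower (median 0.22). Csf1r, the receptor for macrophage growth factor, stood at 2513, 4856, 2751 and 4266, and Emr1, which is F4/80, at 1589, 1959, 983 and 1605. Marco, a scavenger receptor, stood at 727, 8.21, 27.8 and 165, high in wild type with MNU. Hmox1, the haem oxygenase, stood at 6208, 1092, 639.6 and 1648 (5.68-fold lower), Gpnmb at 2195, 467, 227 and 804 (4.702-fold lower) and Trem2 at 451, 83.8, 106 and 178 (5.38-fold lower). The iron exporter Slc40a1 went the other way, at 548, 3725, 2078 and 2229 (6.79-fold higher). General markers thus stood within 2-fold, and the remaining lower genes were the scavenger receptors Mrc1 (2.47-fold lower, 4996 and 2020.5) and Msr1 (2.87-fold lower, 901 and 314). Of 8 neutrophil granule genes 1 was higher and 2 lower: S100a8 stood at 671, 522, 195 and 137 and S100a9 at 781, 655, 269 and 192, both MNU libraries lying above both libraries without MNU, and Itgam, the CD11b integrin, was 7.52-fold lower (3350.4 and 445).

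Matrix genes differed in both directions. Of 22 fibroblast genes 4 were higher and 9 lower (median -0.13). Col1a1, the main collagen, stood at 10968, 1542, 2221 and 3168 and was 7.11-fold lower, Fn1, fibronectin, at 9043, 1123, 2509 and 2461 (8.06-fold lower), and Pdgfrb, a pericyte and fibroblast receptor, at 4839, 634, 771 and 1332 (7.63-fold lower). Collagen and fibronectin transcripts were thus high in wild type with MNU. Gsn, the actin-severing gelsolin, and the matrix protein Postn went the other way, at 4697, 22296, 30678 and 30414 and 452, 2509, 2564 and 2887. Decorin, Dcn, was within 2-fold (5149 and 6904). Endothelial genes hardly differed: of 10 measured 0 were higher and 1 lower, Lyve1, a lymphatic and macrophage receptor, at 637, 97.1, 129 and 245. Pecam1 stood at 6192, 4576, 4919 and 4823 and Cdh5 at 887, 723, 1181 and 904.

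Fat cells lie around and within the ageing thymus. Of 28 adipocyte genes 18 were higher and 0 lower (median 1.42). Adipoq, the adipocyte hormone adiponectin, stood at 489.7, 1936, 4940.3 and 5668, and Plin1, of the lipid droplet, at 148, 1147, 3389 and 3097. Here both MNU libraries lay below both libraries without MNU, with wild type the lower of the MNU pair. Lep, leptin, was listed at 0 in wild type with MNU and stood at 402 in knockout with MNU, and Ucp1, which uncouples respiration in brown fat, at 73.3, 1256, 3415 and 1224. The summed level of the list was 56130.1, 114026, 216947 and 249739.

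Of 6 measured genes in the list named parathyroid, neuroendocrine and airway, 5 were higher and 1 was lower. The lower one was Cxcl13, given with the chemokines. The list is mixed, as it also holds genes of B-cell follicles (Cxcl13) and lymph node venules (Glycam1). Pth, the hormone of the parathyroid, was listed at 0 in wild type with MNU and stood at 804 in knockout with MNU, 257 in wild type and 2.22 in knockout without MNU. Chga, of neuroendocrine granules, stood at 8.25, 1262, 337 and 45.8, Reg3g, an antimicrobial lectin of epithelium, at 11.97, 1041, 296 and 255, and Glycam1, of lymph node venules, at 39.9, 529.96, 10.9 and 6.47. Knockout with MNU was the highest library for these 4 and for Bpifa1, and wild type with MNU for Cxcl13. Erythroid genes, as a gauge of blood in the sample, were within 2-fold for the globins: Hba-a1 stood at 13093, 14613, 20709 and 7045 and Hbb-b1 at 5136, 6847, 9000.1 and 3023, each with a copy of nearly the same values. Of 4 measured muscle genes Tnnt1, a slow skeletal troponin, was lower at 2452, 158, 146 and 505 (15.5-fold lower), and Acta1 (1368 and 1766) and Des (216 and 372) were within 2-fold. Without its fellow muscle genes, Tnnt1 stands apart within that list.

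**Figure D4:**
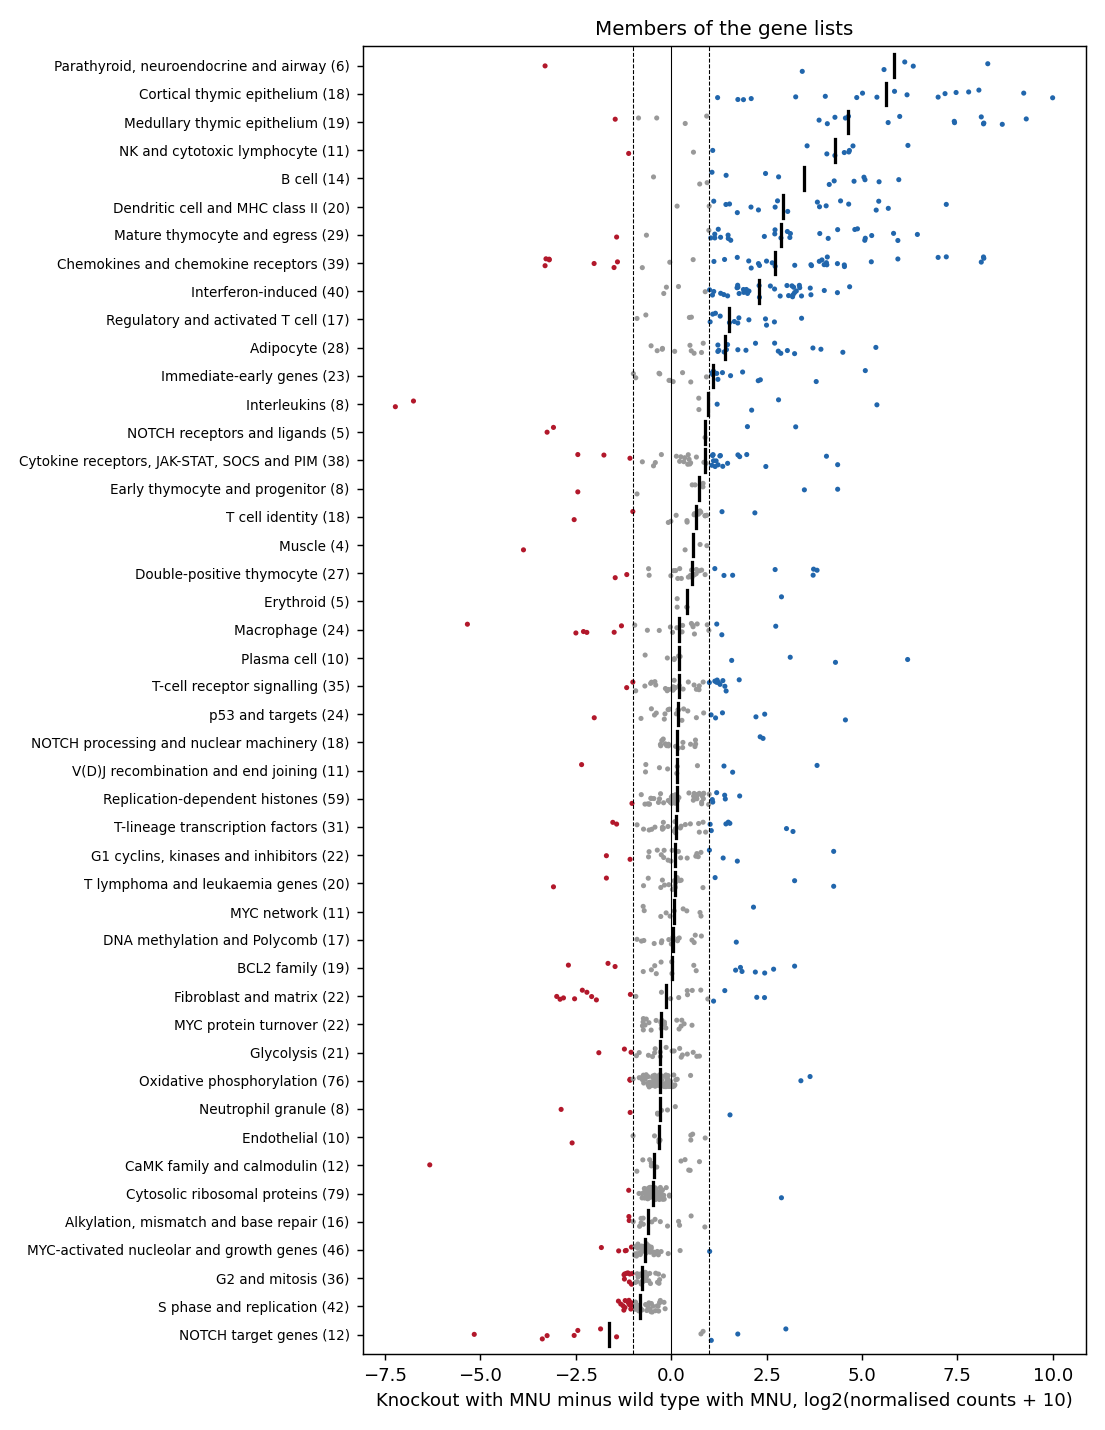
Log2 difference (knockout with MNU minus wild type with MNU, after adding 10) of every measured member of the 46 lists, 1 point per gene, blue at least 2-fold higher and red at least 2-fold lower, with the median as a bar and the number of members in brackets. Medians run from 5.85 and 5.62 at the top to -1.64 for NOTCH targets, and 12 lists have a median of at least 1.

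By normalised counts, not divided by gene length, the top 10 genes of both MNU libraries had in common, among others, Eef1a1 (213589 in wild type and 168538 in knockout with MNU), Ubb, Eef2 and Actb. The top 10 of wild type with MNU also held Notch1, the chaperone Hsp90ab1 (105621 and 48644), Ptma (103725 and 62536), Tuba1b (78055 and 45179) and A130040M12Rik, a transcript of unnamed function, at 110289, 7765, 7525 and 26773 (14.2-fold lower). The top 10 of knockout with MNU held Rag1, Tcf7, Satb1, Cd74 and the lysosomal protein precursor Psap (55723 and 73065) in their place.

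By chromosome, the genes of chromosome 15 lay lower in knockout with MNU than those of any other. Chromosomes were taken from the RefSeq table of GRCm38.p6, in which 10494 genes were found. The 445 genes of chromosome 15 had a median log2 difference of -0.42, and 305 of them (68.5%) were below 0. The medians of the other autosomes and X lay between -0.13 (chromosome 18) and 0.15 (chromosome 7), and of the 10049 genes off chromosome 15, 48.6% were below 0. Of the 445 genes 86 (19.3%) were lower at 2-fold and 62 (13.9%) higher. The shift ran along the whole chromosome: in 5 consecutive blocks of 89 genes the medians were -0.49, -0.45, -0.39, -0.49 and -0.29, the second block being the one that holds Myc. Genes with a mean of at least 500 gave -0.45 over 391 genes, a restriction added after the data were seen. Side by side, and sharing libraries, the chromosome 15 median was 0.09 between the genotypes without MNU, 0.0019 for the MNU knockout against untreated wild type, and 0.40 for wild type with against without MNU. The chromosome stood apart in both differences that use wild type with MNU, by less than 2-fold. Its 0.09 between the genotypes without MNU was also the highest median there, the others lying between -0.03 (X) and 0.02 (chromosome 12). That knockout library held the share of wild type with MNU described above, and its part in the 0.09 was not tested.

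**Figure D5:**
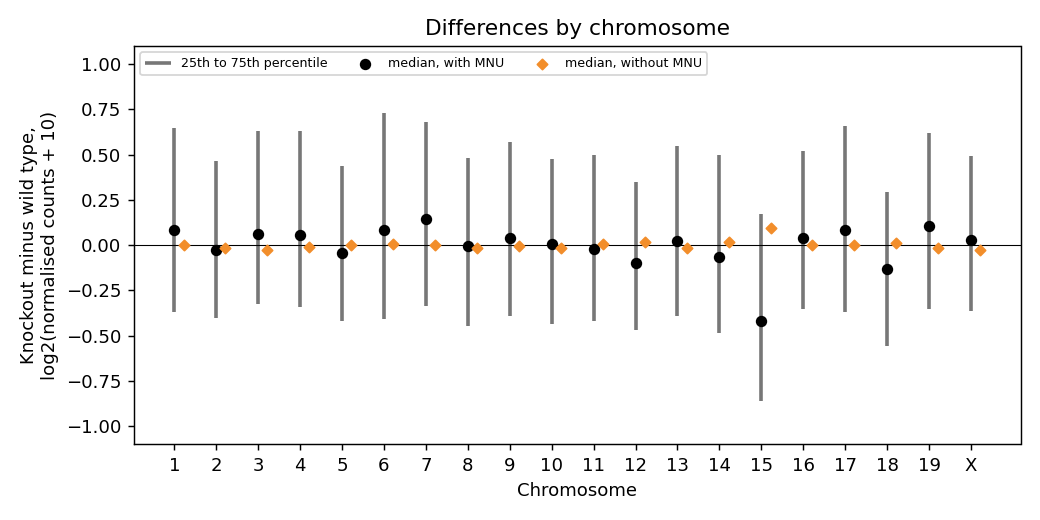
Log2 difference between knockout and wild type by chromosome: black points are medians with MNU, grey bars the 25th to 75th percentile of the genes, and orange diamonds medians without MNU. The chromosome 15 median with MNU, at -0.42, lies below those of all other chromosomes, which stay between -0.13 and 0.15.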

How the data were processed

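Total RNA of thymus (RNeasy, integrity number above 7.5, TruSeq RNA V2 libraries, per the labels' protocols) was sequenced, 1 library for each of 4 groups. TopHat2 2.0.8b, edgeR and mm9 are named without role per the submitters' processing notes, while no source used here gives the counting tool, annotation or normalisation. The deposited table holds a signal per gene and library, called normalised counts per the file headers, for 10598 symbols. Its values are not whole reads, so no count model or counting interval was used, and precision from depth is unknown. A value of 0 is reported as listed at 0. Normalised counts are not divided by gene length, so ranks of genes within a library are descriptions only.

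Genes averaging at least 10 across all 4 libraries were analysed (11 removed), 10 was added and log2 taken (Python 3.11.15, pandas 2.3.3, NumPy 2.4.6, matplotlib 3.10.9). The call was a difference of at least 2-fold. Libraries per group being 1, no test was run. The lists and members were chosen with earlier results of these data known. Named were Camk2g, Xist and the 10 most abundant genes, the 15 largest increases and decreases whose higher library reached 100 (without provisional symbols), the first 3 and the 8 largest members of each list by size of difference, and the 2 genes each side of the threshold. The 27 symbols with values identical to another's, such as copies of histone genes, are uncertain one by one, and 14 symbols had the form of dates. Promoter stretches and chromosomes came from RefSeq tables of GRCm38.p6. Promoters were found by symbol for 7453 of the genes, with those on chromosome 18 left out. Chromosomes were found for 10494 genes, 9451 by symbol and 1043 by synonym. Alternatives were other pseudocounts, filters, scalings and a 4-fold threshold. A few genes that the naming rule picks are not reported here. The 2-fold rule was also run on simulated counts with 4-fold changes set in. That checks the code only, because the simulation held no variation between animals.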

Additional observations from a re-analysis of the deposited data

Results flagged for a closer look

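Among the 420 named genes, 36 differed at least 2-fold between knockout and wild type in one direction with MNU and at least 2-fold in the other direction without MNU. Many of the named genes were picked by the size of their difference with MNU, so selection often met the first condition. The count was not made over all genes. With 1 library per group, the genotype differences with and without MNU were not tested against each other. The values are log2 differences of normalised counts + 10.

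The 28 genes lower in knockout with MNU were Sall3 (-8.28 with MNU and 5.24 without), Dpf1 (-7.61 and 3.98), Sh3gl3 (-7.51 and 4.35), Erc2 (-7.30 and 4.96), Cym (-7.25 and 4.54), Iltifb (-7.23 and 4.68), Kcnf1 (-6.99 and 4.02), Rpl3l (-6.88 and 4.06), Il22 (-6.75 and 4.24), Pde6a (-6.71 and 3.01), Gml (-6.68 and 3.95), Spsb4 (-6.65 and 3.30), Hemt1 (-6.38 and 3.95) and Ly6k (-6.24 and 2.49). Further ones were Marco (-5.34 and 2.21), Dtx1 (-5.16 and 2.75), Tnnt1 (-3.87 and 1.72), A130040M12Rik (-3.83 and 1.83), Heyl (-3.38 and 1.35), Cxcl13 (-3.30 and 2.02), Notch1 (-3.08 and 1.22), Bik (-2.69 and 1.22), Hmox1 (-2.50 and 1.35), Gpnmb (-2.21 and 1.78), Slc16a3 (-1.89 and 1.45), Cdkn2a (-1.70 and 1.83), Msr1 (-1.49 and 1.104) and Mrc1 (-1.30 and 1.01). The positive values without MNU come from the knockout library that held a median 15.4% of the wild-type MNU level of 42 genes, some of them in this list. With that share subtracted, 3 of the 28 remained at least 2-fold opposite. Genes with this pattern also set the share, so the subtraction cancels many of them by construction and cannot test them. It took too much from some, such as Dpf1 (-2.09 after it) and Pde6a (-1.11).

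The 8 genes higher in knockout with MNU were Bpifa1 (8.30 and -1.38), Pth (6.35 and -4.45), Chga (6.12 and -2.64), Lep (5.37 and -1.28), Ucp1 (3.93 and -1.47), Cox7a1 (3.40 and -1.15), Car2 (2.89 and -1.23) and Nr4a1 (1.07 and -1.23). With the share subtracted, 7 of these 8 remained at least 2-fold opposite. Wild type with MNU was the lower MNU library for these genes, so the subtraction took away little and cannot test them.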

How the results depend on the processing

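Over the other pseudocounts, filters and scalings, the genes at least 2-fold higher numbered 1509 to 1638 and those lower 742 to 789, against 1586 and 780. A 4-fold threshold gave 724 higher and 267 lower. Without MNU, 182 genes in place of 274 were higher and 53 in place of 38 lower in knockout once the share held from wild type with MNU had been subtracted. That subtraction used the same median share for all genes and took too much from some, such as Dpf1 (3.98 before and -2.09 after). No named gene or list median changed sign past the threshold. Of 420 named genes at most 9 lost the 2-fold call (pseudocount 40) and at most 6 gained it (pseudocount 2.5), and of 46 list medians 1 crossed it, under upper-quartile scaling. With 40 or 2.5 added in place of 10, 5 list medians moved by over 1.5 times as a fold: cortical epithelium from 5.62 to 4.31 or 6.46, medullary epithelium from 4.65 to 3.88 or 4.94, NK cells from 4.29 to 2.82 or 5.19, B cells from 3.48 to 2.86 or 3.66, and parathyroid and airway from 5.85 to 4.39 or 6.53. Those scalings moved the median of all genes by less than 0.1. Leaving out a replicate could not be done with 1 library per group. No paired analysis was possible because each group has 1 library and the labels give no replicate numbers. The depth in reads is unknown, so low values carry an unknown counting error.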
